A study of Mus musculus with 6 samples.

Results

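Respiratory complex I was examined in 1G11-mock and 1G11-SOD3 cells, mouse microvascular endothelial lines of the strain C57BL/6NCrLBR that differ in the overexpression of the extracellular enzyme superoxide dismutase-3 (SOD3). Its members were taken as the non-control spots whose annotated gene symbol begins with Nduf, which gave 53 spots for 45 genes among the 59305 non-control spots of the array. Both cell lines had spent 6 h in medium conditioned by N202.1A mammary cancer cells, and each was represented by 3 single-color Agilent SurePrint Mouse G3 arrays. The question was whether SOD3 overexpression went together with different RNA levels of complex I genes. Of the 53 spots, 46 lay outside and 7 inside a rectangle in the middle of the array that holds 6606 of the non-control spots and reads dim on the 1G11-mock arrays, and both sets are therefore given apart.

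Complex I (NADH:ubiquinone oxidoreductase) is the entry point of the mitochondrial respiratory chain. It takes electrons from NADH, passes them along a flavin and a row of iron-sulfur clusters to ubiquinone, and pumps protons across the inner membrane. Its core subunits carry out this chemistry and are encoded partly in the nucleus (some of the Ndufs and Ndufv genes) and partly in mitochondrial DNA (the mt-Nd genes). Supernumerary subunits surround and stabilize the core, and the assembly factors (Ndufaf genes among them) build the complex without being part of it. The complex is also one of the sites at which the respiratory chain produces superoxide, the substrate of the superoxide dismutases.

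All values are log2 intensities after normexp background correction and quantile normalization, and differences are 1G11-SOD3 minus 1G11-mock on that log2 scale. A spot was called different at more than 2-fold with a limma p below 0.05 after Benjamini-Hochberg adjustment over all 55961 features. Of the 53 spots, 51 were well above background on all 6 arrays. One of the probes for Ndufaf5 and the probe for Ndufa4l2 were well above background on none. The Sod3 spot itself lay in the middle and read 13.61, 12.66 and 9.86 on the 1G11-mock arrays and 16.37, 16.30 and 16.26 on the 1G11-SOD3 arrays, where its neighbors differed by 1.63. Its difference of 4.27 ± 0.70 (SE) was called (adjusted p = 0.00763 by limma). Among the endothelial markers, Kdr, Eng and Esam (3 of 10) were well above background on all arrays, whereas Cdh5, Tek, Tie1 and Emcn were so on none. Their summed level ranged from 14.35 to 14.82 in 1G11-mock and from 13.93 to 14.21 in 1G11-SOD3 cells. The summed level of the 8 fibroblast and mural markers ranged from 14.43 to 15.14 in 1G11-mock and from 15.36 to 17.42 in 1G11-SOD3 cells, where the highest value came from Dcn on 1 array (17.05), and without Dcn from 12.35 to 12.99 and from 14.86 to 15.24. The sums of the epithelial markers (16.05 to 16.78 against 15.79 to 16.46) and of the leukocyte markers overlapped. Krt14, an epithelial marker whose spot lay in the middle, was called higher by 4.82, with neighbors at 2.59 (2.12 after adjustment for position). No other epithelial marker was called, and Krt19, Krt18, Krt8 and Epcam were lower, Cdh1 was higher and Krt5 differed by probe. Outside the middle, the fibroblast and mural markers Acta2, Pdgfrb, Col1a1, Col1a2 and Lum were called higher. So was the endothelial marker Egfl7 (1.82, neighbors at 0.88). In the middle, Acta2 (3.90, neighbors at 1.62) and Pdgfra (1.49, neighbors at 0.89) were called higher. After adjustment for position, Acta2 remained called (2.62) and Pdgfra did not (0.57, adjusted p = 0.152 by limma). The same Pdgfra probe outside the middle differed by 0.27 and was not called. No marker was called lower. The part of these markers in the complex I values was not tested. Fewer cells of a type and less RNA per cell cannot be told apart in such bulk samples.

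Ndufc2, a small membrane subunit, was the single complex I gene called different, and its spot lay in the middle of the array. The gene is at chr7:97400003-97407800 of GRCm38. A second probe, annotated to the predicted Ndufc2-like gene LOC675851, lay outside the middle. In the coordinates of the array files, whose build is not given in the sources used here, the Ndufc2 probe is at chr7:104556135-104556194 and the LOC675851 probe at chr7:104556210-104556269, on the same strand and 15 bases apart. The last 30 of the 60 bases of both probes are shown because these neighboring probes gave unlike values, with the longest run that the probes share (8 bases) in capitals.
Ndufc2: atccagggcgtTGAAGTTTtcaaagggctt
LOC675851: tgggattttctgtgacagTGAAGTTTaggt

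The Ndufc2 spot read 12.24, 10.43 and 9.82 on the 1G11-mock arrays and 15.43, 14.62 and 15.06 on the 1G11-SOD3 arrays. The groups did not overlap, and the 1G11-mock arrays were spread over a wider range than the 1G11-SOD3 arrays. The difference was 4.20 ± 0.50 (SE, n = 3 per line), or 18.4-fold, with an adjusted p of 0.00131 by limma. The LOC675851 spot read 14.45, 14.60 and 14.36 on the 1G11-mock arrays and 13.54, 14.97 and 14.74 on the 1G11-SOD3 arrays. These groups overlapped, and the difference was -0.05 ± 0.34 (SE), with an adjusted p of 0.966 by limma. Whether both probes detect the same transcript was not tested.

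Spots of other genes around Ndufc2 also read lower on the 1G11-mock arrays. Each spot was set against its neighbors, the non-replicated spots of other genes within 12 rows and 6 columns that were well above background on at least 3 arrays. A spot could pass this filter on its 1G11-SOD3 arrays alone. Where 1G11-mock arrays read dim, the filter thus favors neighbors that are higher in 1G11-SOD3 cells, also in the counts and levels below. Around Ndufc2, 97 of 97 such spots were higher in 1G11-SOD3 cells, with quartiles of 1.69 and 3.27, and 6 of them differed by as much as Ndufc2 or more. Relative to their own 6-array means, the neighbors stood at -0.48, -1.35 and -1.71 on the 1G11-mock arrays and Ndufc2 at -0.69, -2.50 and -3.11. The 1G11-mock array that was lowest for Ndufc2 was thus also lowest for its neighbors. After subtraction of the neighbors' deviation from every array, the Ndufc2 difference was 1.92 ± 0.34 (SE), with an adjusted p of 0.0133 by limma, and it remained called. Of all features in the middle, 2.11% were called higher after this adjustment and 11.9% before it. Counted in either direction, however, 1272 of these 6435 features were called after it and 772 before it. For replicated probes, the median gap in difference between copies in and outside the middle was 1.71 before and 0.33 after. The adjustment thus did not fully remove the effect of place, which limits the Ndufc2 call after it.

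The other members in the middle were 5 supernumerary subunits and the assembly factor Ndufaf1. Together with Ndufc2, all 7 had a positive difference, with a median of 1.06, against a median of 1.01 over the 1176 features in the middle that were well above background on every array. In 5 of the 7, all 1G11-SOD3 arrays lay above all 1G11-mock arrays, which was the case for 59.2% of those features. The members' count of non-overlapping groups and their median were therefore near the values of the region as a whole.

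**Figure D1:**
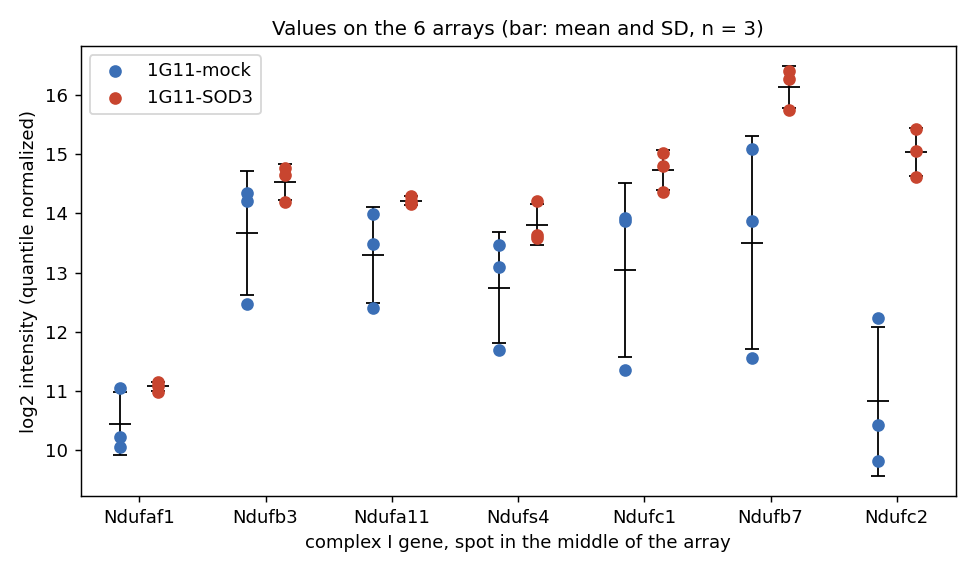
Log2 intensity (vertical axis) of the 7 complex I spots in the middle of the array on the 3 1G11-mock arrays and the 3 1G11-SOD3 arrays (points), with mean and SD as bars. The groups of Ndufc2 are far apart, whereas Ndufaf1 and Ndufb3 overlap, and the 1G11-mock points are more spread than the 1G11-SOD3 points for each gene.

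Ndufb7, a supernumerary subunit on the intermembrane space side (gene at chr8:83566758-83571623 of GRCm38), read 15.09, 13.86 and 11.56 in 1G11-mock and 16.40, 15.74 and 16.26 in 1G11-SOD3 cells. Its difference of 2.63 ± 0.66 (SE) was not called (adjusted p = 0.0592 by limma). Ndufc1, a small membrane subunit (chr3:51405479-51408955), read 13.87, 13.92 and 11.35 against 15.02, 14.80 and 14.36. Its groups did not overlap, and the difference of 1.68 ± 0.56 (SE) was not called (adjusted p = 0.165 by limma). With the replicate number as a block, the adjusted p by limma was 0.0152 for Ndufb7 and 0.0266 for Ndufc1, so that 3 of the 7 members were called. Of all features in the middle, 16.3% were called higher with the block. That share counts dim features too, whereas all 7 members were well above background on every array. Around Ndufb7 the neighbors differed by 1.74 and around Ndufc1 by 0.96, and after adjustment for position the differences were 0.95 (adjusted p = 0.205) and 0.77 (adjusted p = 0.295) by limma.

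Ndufs4, an accessory subunit of the NADH-oxidizing arm whose loss causes Leigh-like disease in mice, read 13.46, 13.09 and 11.69 in 1G11-mock and 13.64, 13.57 and 14.20 in 1G11-SOD3 cells. The third 1G11-mock array was the lowest, and the difference of 1.06 ± 0.40 (SE) was not called. Ndufa11, a membrane-arm subunit, read 13.49, 13.99 and 12.40 against 14.15, 14.29 and 14.20, a difference of 0.92 ± 0.35 (SE). Ndufb3, another membrane-arm subunit, read 14.33, 14.20 and 12.47 against 14.19, 14.77 and 14.64, a difference of 0.87 ± 0.43 (SE). Ndufaf1, which acts early in building the membrane arm, read 11.05, 10.23 and 10.06 against 11.15, 10.99 and 11.09, a difference of 0.63 ± 0.28 (SE). The last 2 overlapped between the cell lines. Without the third 1G11-mock array, the differences fell to 0.27 for Ndufb3, 0.47 for Ndufa11, 0.53 for Ndufs4 and 0.83 for Ndufc1, and that of Ndufb7 was 1.65. None of Ndufs4, Ndufa11, Ndufb3 and Ndufaf1 was called, and after adjustment for position their differences lay between 0.13 and 0.58.

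Outside the middle, none of the 46 spots, which represent 38 genes, was called in either direction, where 1.86% of all features outside the middle were called. In a fit with dim probes left out, 0 of 44 members were called, where 5.82% of the features outside the middle were. At an unadjusted limma p below 0.05 there were 7 (15.2%), where 12.7% of all features outside the middle passed, and 24.3% of those well above background on every array. The median difference of the 46 spots was 0.08, with quartiles of -0.12 and 0.26 and a range of -0.67 to 0.95. The median of the 15228 features outside the middle that were well above background on every array was -0.17. Differences were below 0.5 in size in 36 of the 46 spots.

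**Figure D2:**
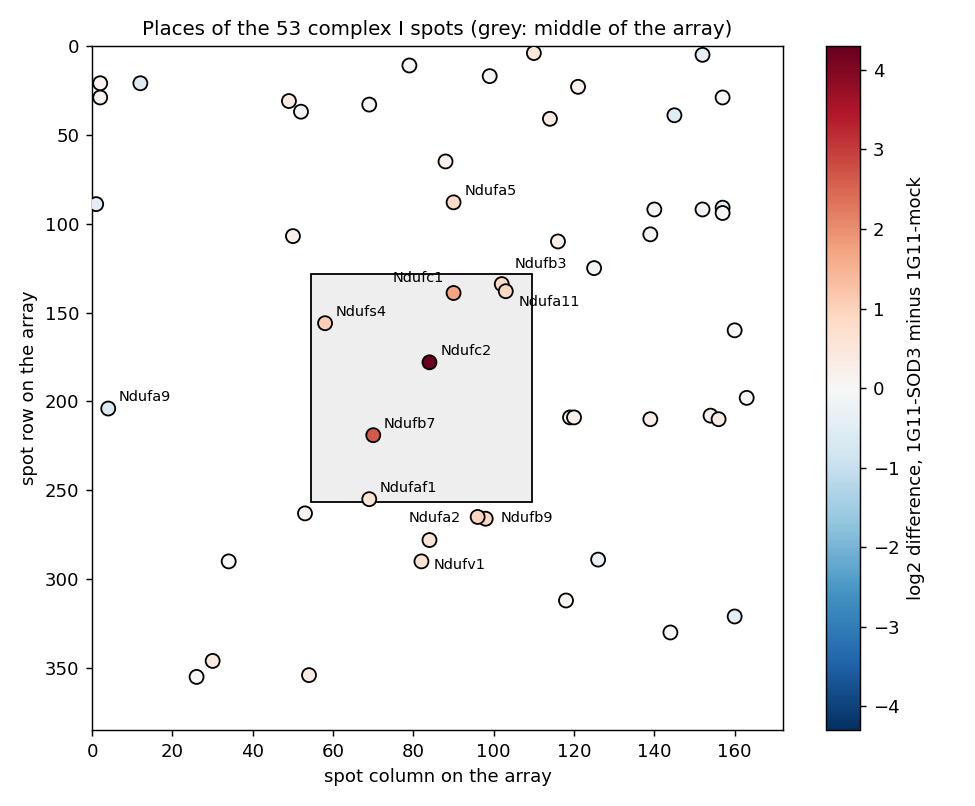
Places of the 53 complex I spots on the array (spot column and row), colored by the log2 difference between 1G11-SOD3 and 1G11-mock cells. The grey rectangle is the middle, and the strongest colors, Ndufc2 (4.20) and Ndufb7 (2.63), lie inside it.

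The nuclear-encoded core subunits were all measured outside the middle, and their differences ranged from -0.17 to 0.64 with a median of -0.01. Ndufs1, the largest of the iron-sulfur subunits, read 14.65, 14.70 and 14.55 in 1G11-mock and 14.48, 14.24 and 14.68 in 1G11-SOD3 cells. Ndufs3, a subunit of the arm that links to the membrane, read 15.53, 15.48 and 15.55 against 15.57, 15.38 and 15.15. The cell lines overlapped for both genes.

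Ndufs7, which carries the last iron-sulfur cluster before ubiquinone, read 16.52, 16.23 and 16.15 in 1G11-mock and 16.39, 16.32 and 16.01 in 1G11-SOD3 cells. Ndufs8, another iron-sulfur subunit, read 13.18, 12.99 and 13.74 against 12.84, 13.35 and 13.71. Ndufv2, an iron-sulfur subunit of the NADH-binding module, read 15.22, 14.91 and 14.92 against 14.73, 15.21 and 15.54. Groups overlapped here too. Ndufv1, which binds NADH and the flavin, was the exception among the core subunits described here, as its 1G11-mock values of 15.33, 14.61 and 14.95 all lay below its 1G11-SOD3 values of 16.01, 15.36 and 15.45. Its difference of 0.64 ± 0.27 (SE) was not called (adjusted p = 0.300 by limma), and its neighbors differed by 0.44.

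Of the supernumerary subunits, 29 spots for 23 genes lay outside the middle, with a median difference of 0.07. Ndufa2, a small subunit of the matrix arm, had the largest positive difference outside the middle and read 15.77, 15.93 and 15.11 in 1G11-mock and 16.90, 16.58 and 16.18 in 1G11-SOD3 cells. Its groups did not overlap, and the difference of 0.95 ± 0.28 (SE) was not called (adjusted p = 0.117 by limma). Ndufb9, a membrane-arm subunit, read 16.30, 15.61 and 15.08 against 16.82, 16.46 and 16.25, a difference of 0.85 ± 0.31 (SE). Ndufa13, also known as GRIM-19, read 17.29, 16.74 and 16.42 against 17.73, 17.37 and 17.12, a difference of 0.59 ± 0.28 (SE). These groups overlapped.

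Ndufa5, a subunit of the matrix arm, was measured by a pair of probes whose differences were unlike. The probe in row 88 and column 90 read 13.77, 13.98 and 13.10 in 1G11-mock and 14.46, 14.47 and 14.42 in 1G11-SOD3 cells, a difference of 0.83 ± 0.26 (SE) among neighbors that differed by 0.39. The probe in row 106 and column 139 read 15.60, 15.72 and 15.997 against 15.95, 15.96 and 15.58, a difference of 0.06 ± 0.23 (SE) among neighbors that differed by -0.30. The groups were apart with the first probe and overlapped with the second. In all, 8 genes had a pair of probes outside the middle, and in 6 of them the probe with the higher neighbors had the higher difference.

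The largest negative differences outside the middle belonged to 4 supernumerary subunits of the matrix or membrane arm and to 1 assembly factor. Ndufa9, which stabilizes the junction of the matrix and membrane arms, read 14.69, 14.80 and 14.90 in 1G11-mock and 14.36, 13.95 and 14.08 in 1G11-SOD3 cells. The groups did not overlap, and the difference of -0.67 ± 0.22 (SE) was not called (adjusted p = 0.164 by limma), with neighbors at -0.58. Ndufa1, a small membrane subunit, read 15.84, 15.55 and 15.71 against 14.53, 15.51 and 15.44, so that the first 1G11-SOD3 array alone was far below, and without it the difference was -0.22. Ndufa6, a member of the LYR protein family, read 15.04, 15.37 and 15.50 against 14.75, 14.68 and 14.88, with no overlap.

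Ndufa7, a matrix-arm subunit, read 16.64, 16.40 and 16.83 in 1G11-mock and 16.46, 16.12 and 15.90 in 1G11-SOD3 cells. Ndufaf3, an assembly factor of the arm that binds ubiquinone, read 11.98, 12.46 and 12.63 against 11.89, 12.02 and 11.43. Both overlapped between the cell lines. The differences of Ndufa1, Ndufa6, Ndufa7 and Ndufaf3 were -0.54 ± 0.28, -0.53 ± 0.22, -0.46 ± 0.24 and -0.58 ± 0.26 (SE), none of them called. The first 1G11-SOD3 array also stood apart for Ndufs5 (13.13 against 14.83 and 14.85 on the other 1G11-SOD3 arrays) and for 1 of the probes of Ndufb4 (13.17 against 15.09 and 14.96).

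All 1G11-SOD3 arrays lay above all 1G11-mock arrays for 6 of the 44 spots outside the middle that were well above background on every array (Ndufa2, Ndufa5 in row 88, Ndufa8, Ndufaf7, Ndufb8 and Ndufv1), that is 13.6%, where 8.02% of such features did so. They lay below for 3 spots (Ndufa1, Ndufa6 and Ndufa9), or 6.82%, where 20.9% of such features did so. Among the 8 spots of assembly factors outside the middle, the median difference was 0.15. Ndufaf7, a mitochondrial methyltransferase, was the one without overlap, at 0.51 ± 0.24 (SE), and was not called.

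Ndufa4 and Ndufa4l2 are named like subunits, although Ndufa4 is now assigned to cytochrome c oxidase. Ndufa4 read 14.93, 14.90 and 15.29 in 1G11-mock and 15.09, 15.08 and 15.22 in 1G11-SOD3 cells, a difference of 0.09 ± 0.22 (SE). Ndufa4l2, a relative that hypoxia induces in many cells, was well above background on no array and read 7.17, 7.13 and 6.65 against 7.41, 7.47 and 7.16. No fold is given for it.

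**Figure D3:**
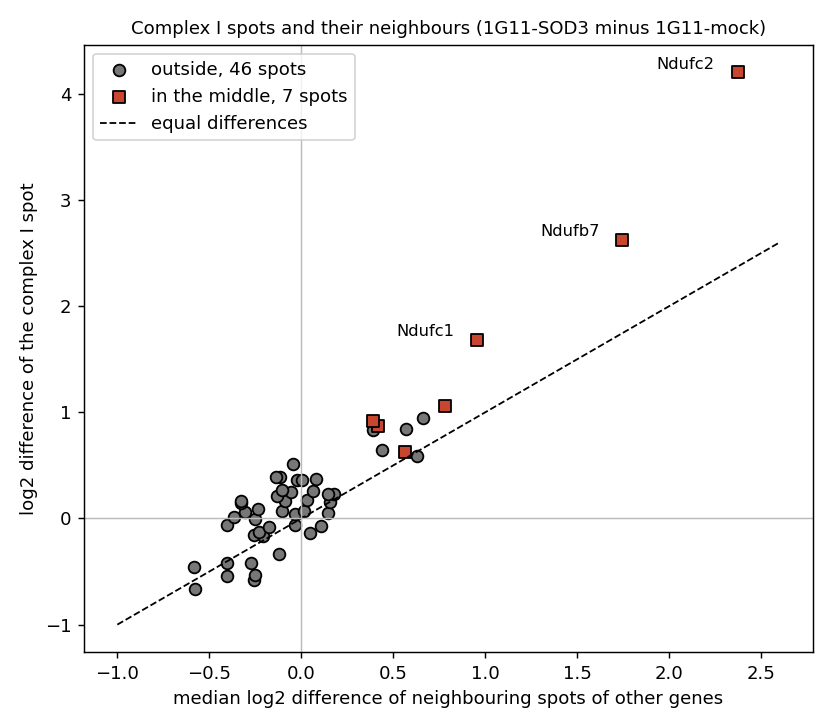
Log2 difference of each complex I spot (vertical axis) against the difference of its neighboring spots of other genes (horizontal axis), with 46 spots outside the middle as circles and 7 in it as squares. Points rise along the dashed line of equal differences, and Ndufc2, at 4.20 with neighbors at 2.37, is the farthest above it.

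The difference of a complex I spot went with that of its neighbors. Over the 46 spots outside the middle, Pearson's r was 0.786 and Spearman's rho 0.678, given as a description, since the spots share the 6 arrays and nearby spots share neighbors. The SD of the 46 differences was 0.375, and it was 0.232 once the neighbors' difference was subtracted. The 9 spots above or below the middle in its own columns all had positive differences, with a median of 0.59, and they include Ndufa2, Ndufb9, Ndufa5 in row 88, Ndufv1 and Ndufa13, the 5 largest of the 46. The other 37 spots had a median of 0.06, and 20 of them were positive.

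The mitochondrially encoded core subunits, which form the proton-pumping membrane arm, were read by 1 probe each. For the 6 outside the middle the differences were -0.61 for mt-Nd5, -0.53 for mt-Nd1, -0.50 for mt-Nd4, -0.21 for mt-Nd6, 0.01 for mt-Nd4l and 1.12 for mt-Nd3, and the cell lines overlapped in each. The mt-Nd3 spot was in row 122 and column 65, just above the middle, and its neighbors differed by 0.75. The mt-Nd2 spot lay in the middle, with a difference of 1.78 and neighbors at 1.29. None was called.

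Assembly factors without the Nduf prefix (13 genes measured, 16 features, among them Acad9, Ecsit, Foxred1 and Timmdc1) had a median difference of 0.04, and none was called. Regulators of mitochondrial biogenesis, such as the coactivator Ppargc1a and the mitochondrial transcription factor Tfam, gave 18 features outside the middle, with a median of 0.03 and a range of -0.32 to 0.29, and none was called. Of these 18, only 10 were well above background on every array, and no probe for Ppargc1a was. Signal over background limits the values of the rest. Over the mitochondrially encoded subunits, these assembly factors and these regulators, 0 of 40 features outside the middle were called, where 1.86% of all features there were. Of the 40, 29 were well above background on every array. In the fit with dim probes left out, 0 of 34 were called, where 5.82% of the features outside the middle were. In the middle, the transcription factors Nrf1 (1.34 ± 0.29) and Gabpb1 (1.63 ± 0.37, SE, n = 3 per line) were called higher, with neighbors at 0.99 and 1.37. They were 2 of the 3 features of these lists in the middle. Among all features there, 11.9% were called higher, and 36.5% in the fit with dim probes left out. Outside the middle, other probes for Nrf1 differed by 0.05 and -0.03 and another for Gabpb1 by -0.06, although none of these was well above background on all arrays. After adjustment for position, Nrf1 in the middle differed by 0.49 (adjusted p = 0.287) and Gabpb1 by 0.31 (adjusted p = 0.526) by limma, and neither was called.

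**Figure D4:**
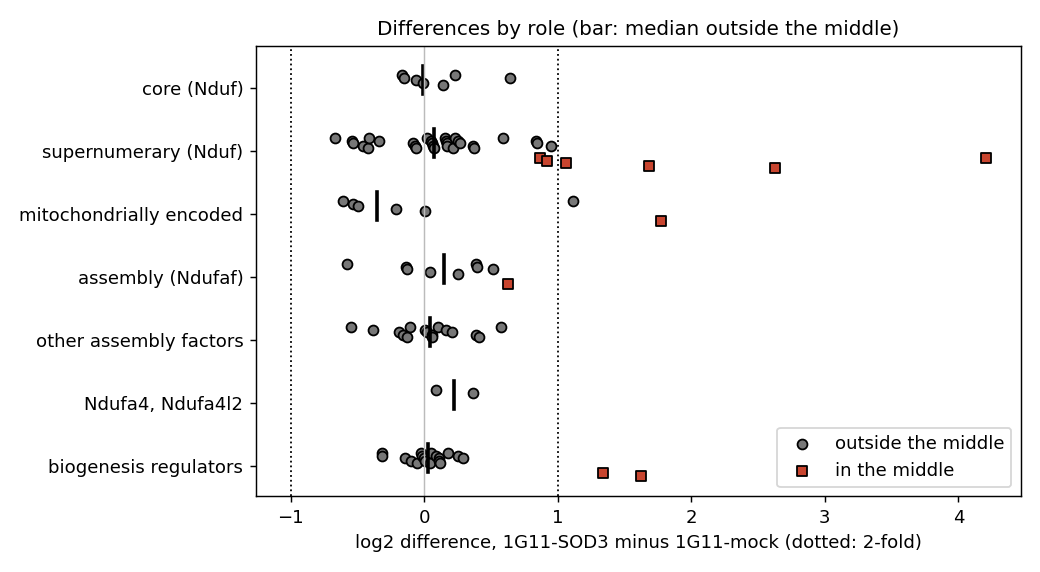
Log2 difference (horizontal axis) of Nduf spots and of the other complex I genes by role, with circles for spots outside the middle, squares for spots in it and black bars for the median outside. Outside the middle all but mt-Nd3 (1.12) stay within 2-fold, and the 6 largest differences are squares.

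A further 10 probes, 8 outside the middle and 2 in it, belong to Nduf genes by their accession or protein name but carry no such symbol in the annotation, and they are in none of the counts above. Among them are the ones for Ndufb1, a small membrane subunit (0.61 ± 0.26, SE), and Ndufaf8, an assembly factor (0.23 ± 0.29, SE). The differences of the 8 outside the middle ranged from -0.16 to 0.69. Neither of the 2 in the middle cleared the background on all 1G11-mock arrays. None of the 10 was called.

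Subunits of the later respiratory complexes II to V formed a list chosen after the complex I values were seen. Of their 64 features outside the middle, 58 were well above background on every array, 0 were called, and the median was -0.05. Among all features outside the middle, 1.86% were called, and 5.82% in the fit with dim probes left out. Of their 8 features in the middle, 7 were well above background on every array, and 3 were called higher. Of all features in the middle, dim ones included, 11.9% were called higher, and 36.5% in the fit with dim probes left out. The median of the 8 was 1.59, with neighbors at a median of 1.52.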

How the data were processed

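The authors deposited Feature Extraction 10.7.3.1 output with spot and background intensity, not normalized between arrays, and a table of log2 values after normexp (offset of 50) and quantile normalization. Here mean intensity was corrected by normexp with the background median (offset of 50), controls were dropped, and log2 values were quantile normalized. Flagged outlier spots were left out and copies of a probe averaged within each place. limma 3.58.1 in R 4.3.3 compared 3 with 3 arrays, and an exact permutation test cannot go below p = 0.1 with such groups. The number of arrays limits the precision. The fit was tested on simulated data with independent noise of the same SD on every array. These data held no dim region, so the test cannot speak to the calls in the middle.

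Deviations of same-numbered arrays from their group means correlated at 0.166, 0.102 and 0.156 over 16309 features. Those of differently numbered arrays correlated at -0.169 to 0.055. The main fit did not use the replicate number, and all calls are from it unless the block is named. The fit with the replicate number as a block is an alternative. Slide row coincided with cell line, and these cannot be told apart. All 53 probes matched RefSeq (GRCm38.p6) by accession. The build of the probe coordinates in the files is not given in the sources used here. Every spot with an Nduf symbol was counted, and those given in full were the called ones, those in the middle, the 5 largest differences each way outside it, the core subunits, Ndufa4 and Ndufa4l2. One gene that this rule covers is not reported here. Members and lists were chosen with earlier results of these data known. Alternatives were other background corrections, scalings and filters, adjustment for position, the replicate block, the deposited table and each array left out.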

Additional observations from a re-analysis of the deposited data

How the results depend on the processing

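Ndufc2 was called in each of 6 fits with 1 array left out (3.70 to 4.91), in both adjustments for position (1.92, and 1.68 with a narrower window chosen after seeing the data) and in the 12 other alternatives (3.28 to 4.33). In the middle, 4 members were called with 75th percentile scaling, 2 with dim probes left out, 3 with the replicate block, and 1 to 2 with 1 array left out (the second was Ndufb7, at 3.42 without the first 1G11-mock array). Of all features there, 17.4%, 36.5%, 16.3% and 4.8% to 15.7% were called higher in these fits. The replicate block changed no other call among the Nduf spots, mitochondrially encoded subunits, other assembly factors and regulators. With it, the endothelial marker Esam, whose spot lay in the middle, was called higher (1.22, adjusted p = 0.0478 by limma). The neighbors of Esam differed by more, 1.68. After adjustment for position, without the block, Esam differed by -0.34 (adjusted p = 0.412 by limma). The members' median in the middle was 0.53 without the third 1G11-mock array and 0.34 with the processed signal. Outside the middle the median ranged from 0.06 to 0.22, and 2 members were called with the processed signal (Ndufaf6 higher, and Ndufaf5 lower by its dim probe, where the median of all features was -0.52 and 7923 of 49526 outside the middle were called) and 0 with any array left out. Of the mitochondrially encoded subunits, other assembly factors and regulators, 1 was called with the processed signal (Ppargc1a), 1 with 75th percentile scaling (mt-Nd3, where the median of all features was -0.33) and 0 to 1 with 1 array left out (mt-Nd3 without the first 1G11-mock array). With the processed signal, Ndufa9 turned to 0.076, Ndufa6 to 0.028 and Ndufa7 to 0.17. After the position adjustments, Ndufa13 was -0.050 and -0.14 and Ndufa7 was 0.052 and 0.049. The cause was not tested. Adjustment for position subtracts the same amount from dim and bright spots. Signal over background limits the values of Ndufa4l2 and 1 probe of Ndufaf5, and those of dim regulators such as Ppargc1a.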
